A study of Homo sapiens with 9 samples.

Results

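The 10 genes described here are 7 growth factors of the epidermal growth factor (EGF) family (EGF, TGFA, HBEGF, AREG, EREG, BTC and NRG1) and 3 of their receptors (EGFR, ERBB2 and ERBB3), out of 23710 entries in the count table. They were chosen by family name, with the fold changes of these same libraries already known, so the values below describe the genes and are not independent support for any change in them. All 10 had counts in all 9 libraries, and all 10 passed the filter on low counts, which left 12546 genes for testing. The cells were MDA-MB-231, a human breast cancer cell line of the triple-negative class, grown in DMEM with 5% FBS. Each of the 3 groups carried a lentiviral pGIPZ vector that makes a short hairpin RNA: a non-targeting hairpin (shNT, the control), or a hairpin against UGDH, either shUGDH-1 or shUGDH-2. There were 3 libraries per group. UGDH encodes UDP-glucose dehydrogenase, which makes UDP-glucuronate, a building block of heparan sulfate, chondroitin sulfate and hyaluronan. The sources used here do not say whether the transduced cells were pools or clones, or whether replicates were transduced separately, so the tests measure the spread between these libraries.

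EGF family ligands are made as membrane-anchored precursors and are released by cell surface proteases. EGF, TGFA and AREG bind EGFR, HBEGF, EREG and BTC bind EGFR and ERBB4, and NRG1 binds ERBB3 and ERBB4. A bound receptor pairs with another ERBB receptor and signals through RAS and ERK and through PI3K and AKT. ERBB2 has no known ligand of its own and is the favoured partner, and ERBB3 has little kinase activity. HBEGF and AREG bind heparan sulfate, and triple-negative lines such as MDA-MB-231 are known for high EGFR and low ERBB2.

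The labelled hairpin sequences are shown because each group is defined by 1 of them. Bases 2 to 8 are in capitals.
shNT: aTCTCGCTtgggcgagagtaag
shUGDH-1: tTGCATCAaatatgcgacg
shUGDH-2: aTATACTTcagatctgctg
Both UGDH sequences are antisense to a UGDH transcript, and the shNT sequence is in no UGDH transcript on either strand. The reverse complement of bases 2 to 8 was looked for in annotated 3′ untranslated regions of 18805 genes, a search chosen after the values were seen. The letters AGCGAGA, for shNT, stood in 5.01% of the genes and in none of the 10. The letters TGATGCA, for shUGDH-1, stood in 9.98% of genes and, of the 10, in BTC. The letters AAGTATA, for shUGDH-2, stood in 13.0% of genes and, of the 10, in EGFR, EREG and TGFA. These had the longest regions of the 10 (6011, 3943 and 3579 bases), where NRG1, with no match, had 3557 and AREG 269. A longer region has more places for a match, and the shares take no account of length, so nothing is read from them. These are letter matches only, and the first base of the processed guide is not stated in the labels.

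The 250 bases before the annotated start are shown for EREG and EGF, the ligands with the largest called fold changes, and for AREG, which lies next to EREG on chromosome 4. They are on the plus strand of GRCh38.p14, from RefSeq, at chr4:74364895-74365144 for EREG, chr4:74444886-74445135 for AREG and chr4:109912633-109912882 for EGF. Capitals mark a TATA box (TATAAA), a cyclic AMP response element (TGACGTCA) or an AP-1 site (TGANTCA).
EREG: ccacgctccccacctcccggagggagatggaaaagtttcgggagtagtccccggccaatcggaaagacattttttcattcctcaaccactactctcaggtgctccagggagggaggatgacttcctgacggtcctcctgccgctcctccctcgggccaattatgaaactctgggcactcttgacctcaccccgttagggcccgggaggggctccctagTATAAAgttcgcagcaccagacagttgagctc
AREG: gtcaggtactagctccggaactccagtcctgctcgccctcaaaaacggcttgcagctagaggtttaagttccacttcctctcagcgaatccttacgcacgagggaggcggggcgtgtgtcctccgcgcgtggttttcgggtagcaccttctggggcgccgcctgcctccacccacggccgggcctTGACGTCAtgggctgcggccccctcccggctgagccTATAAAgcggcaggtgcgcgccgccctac
EGF: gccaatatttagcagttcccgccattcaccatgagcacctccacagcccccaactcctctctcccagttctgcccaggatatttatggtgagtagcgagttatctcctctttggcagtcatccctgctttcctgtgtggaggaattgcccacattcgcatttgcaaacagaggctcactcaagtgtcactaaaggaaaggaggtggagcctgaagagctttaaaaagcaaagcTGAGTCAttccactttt
Both strands were searched, in the windows of 27305 genes, and 8 of the 10 genes had a window in the table used. TATAAA was in 11.2% of all windows and in those of EREG and AREG. TGACGTCA was in 1.75% and, of the 8, in AREG. TGANTCA was in 6.57% and, of the 8, in EGF and ERBB2; the EGF match at −17 to −11 from the start overlaps a match to the antioxidant response element (TGACNNNGC, 11.1% of windows). A match is a string of letters and was not tested as a binding site.

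Total counts per library ran from 9249738 to 13328002. The target was low in every knockdown library: UGDH was at 52.9 ± 2.67 CPM (normalised counts per 1000000 counts of the library; SD, n = 3) with shNT, 7.65 ± 0.367 with shUGDH-1 and 7.17 ± 0.802 with shUGDH-2. Control replicate 1 stood somewhat apart from the other control libraries (chi-square per degree of freedom 1.90 and 1.86, against 1.19 to 1.47 for the other pairs within groups). All 5 markers of this line (VIM, CD44, AXL, CAV1 and MSN) had counts, with summed levels of 7460 to 7580 CPM with shNT, 7900 to 7960 with shUGDH-1 and 7460 to 7600 with shUGDH-2. Luminal markers summed to 172 to 175, 227 to 239 and 197 to 208 CPM in the same order, with PGR at 0. Leukocyte markers summed to 2.3 to 3.84 CPM over all libraries with CD3E at 0, and fibroblast markers to 27.7 to 36.6 CPM with DCN and LUM at 0. The part of these shifts in the results below was not tested, and in bulk RNA fewer cells of a type and less RNA per cell cannot be told apart.

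Per kilobase of the longest annotated transcript, HBEGF was the most abundant of the 10 genes in control cells, at 121 CPM per kilobase. TGFA followed at 37.7, EGFR at 27.6, EREG at 24.6, ERBB2 at 23.8, AREG at 9.17, NRG1 at 5.04, EGF at 1.09, ERBB3 at 0.421 and BTC at 0.369. The control libraries of EREG (23.9 to 25.6) and ERBB2 (23.1 to 24.6) overlapped, as did those of ERBB3 and BTC, while the other neighbours in this order did not. With the median annotated transcript length in place of the longest, HBEGF (236), TGFA (200) and EGFR (121) kept their places, but ERBB2 (101) moved above EREG (88.0) and NRG1 (23.9) above AREG (11.9). The transcripts these cells use were not measured.

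**Figure D1:**
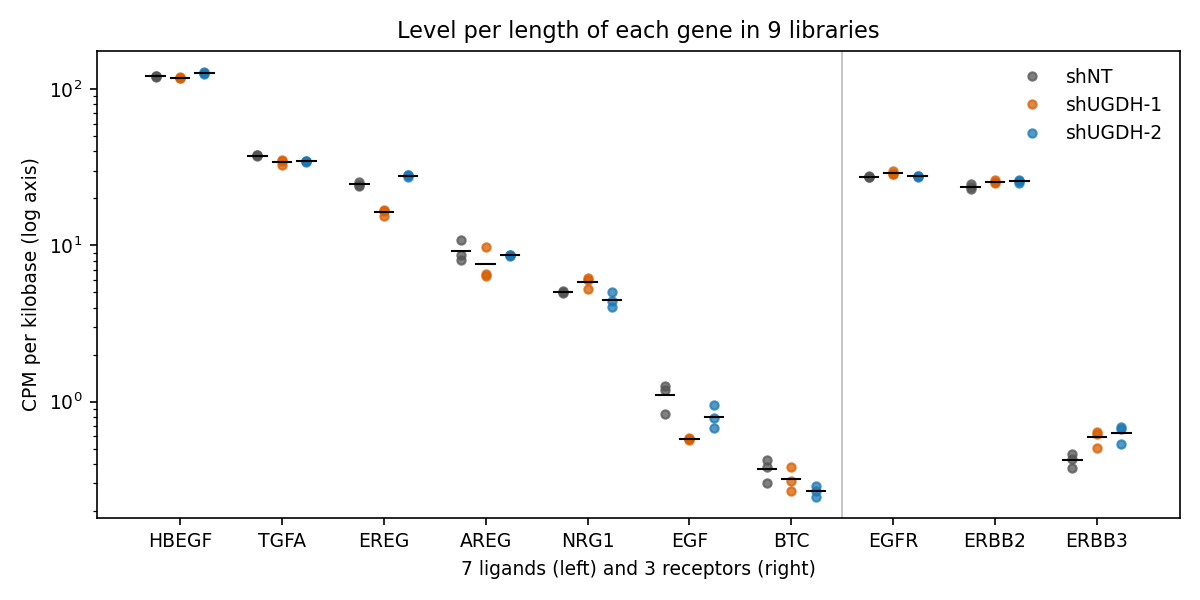
Level of each of the 10 genes in CPM per kilobase of its longest transcript, on a log axis, in each of 9 libraries (points) with group means (lines). HBEGF lies highest at 121 CPM per kilobase in controls and BTC lowest at 0.369.

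The first question is how the family responds to each UGDH hairpin. With shUGDH-1, EGF, EREG and TGFA were lower than in controls and EGFR, NRG1 and ERBB2 were higher. With shUGDH-2, TGFA was lower and EREG, ERBB2 and ERBB3 were higher. TGFA and ERBB2 were therefore called in the same direction with both hairpins, and EREG in opposite directions. Of the genes called with shUGDH-1 or shUGDH-2 but not both, EGF had log2 fold changes of −0.93 and −0.45 and ERBB3 0.48 and 0.58. EGFR had 0.08 and 0.01, and NRG1 0.19 and −0.17. Of these, only NRG1 was called between the hairpins. A gene was called where the adjusted p was under 0.05. Each adjusted p comes from the quasi-likelihood test of edgeR, with the Benjamini-Hochberg method applied over 12546 genes. Where all libraries of a group lie above or below another group, the share of all tested genes that do so was not counted. Such separation is description, and nothing is read from it alone.

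With shUGDH-1, 6 of the 10 genes were called, 3 higher and 3 lower, where 20.8% of all tested genes were called, 10.5% higher and 10.3% lower. With shUGDH-2, 4 of the 10 were called, 3 higher and 1 lower, against 14.9% of all tested genes, 8.04% higher and 6.81% lower. Between the hairpins (shUGDH-2 against shUGDH-1), 3 of the 10 were called, EREG and HBEGF higher and NRG1 lower, against 10.9% of all tested genes, 5.36% higher and 5.51% lower. As the genes were chosen with these contrasts known, nothing is read from their share. The median log2 fold change of the 10 was −0.09 with shUGDH-1 and −0.04 with shUGDH-2, against −0.0026 and −0.0059 over all tested genes. Without regard to sign, the median over all tested genes was 0.098 with shUGDH-1 and 0.086 with shUGDH-2. Among the called genes it was 0.199 and 0.18. Without control replicate 1 the count with shUGDH-1 was 3. The count with shUGDH-2 was 2 without control replicate 1, without control replicate 3 or without shUGDH-2 replicate 1. Both comparisons share the same 3 control libraries.

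**Figure D2:**
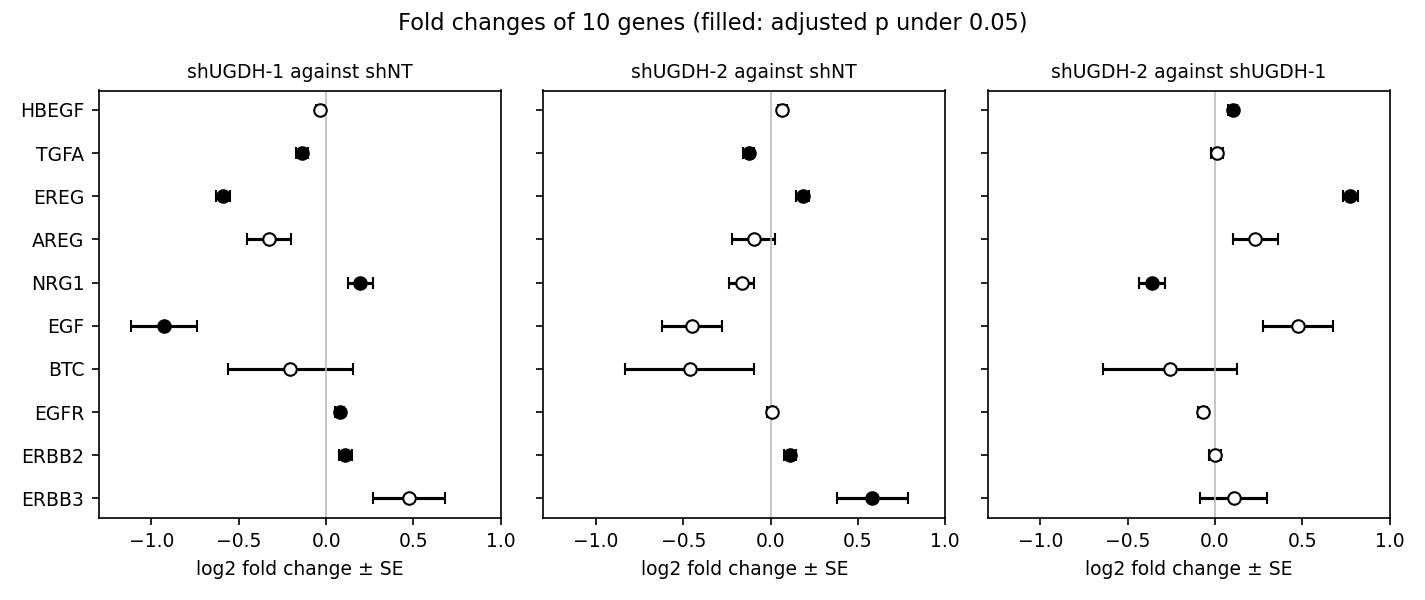
log2 fold change (± SE) of the 10 genes in 3 comparisons, with filled points where the adjusted p is under 0.05. EREG lies at −0.59 with shUGDH-1, 0.18 with shUGDH-2 and 0.77 between the hairpins.

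Among the ligands, EREG (epiregulin) had the smallest adjusted p in each comparison. Its level was 118, 112 and 110 CPM in control replicates 1 to 3. It was 76.8, 77.4 and 71.4 CPM with shUGDH-1, and 131, 131 and 126 CPM with shUGDH-2. All 3 shUGDH-1 libraries lay below all controls, and all 3 shUGDH-2 libraries lay above them. Against controls, shUGDH-1 gave a log2 fold change of −0.59 (SE 0.04, adjusted p = 4.07e-18). For shUGDH-2 it came to 0.18 (SE 0.04, adjusted p = 0.000265). The difference between the hairpins was 0.77 (SE 0.04, adjusted p = 1.61e-23), or 1.71-fold. All 3 calls held in each of the 14 alternative analyses. In the authors' deposited tables EREG has log2 fold changes of −0.59 and 0.18 against controls.

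EGF, the ligand that names the family, was scarce, with 442 counts over all 9 libraries. Control libraries held 6.15, 4.08 and 5.79 CPM and shUGDH-1 libraries 2.85, 2.78 and 2.82 CPM. The shUGDH-1 libraries were all lower than all controls, at 52.6% of the control level (log2 fold change −0.93, SE 0.19, adjusted p = 0.000135), and this call held in each alternative. The shUGDH-2 libraries held 3.29, 3.85 and 4.61 CPM, which overlaps control replicate 2. That change (log2 −0.45, SE 0.17, adjusted p = 0.0695) did not pass the test, but did without control replicate 2 (−0.61, adjusted p = 0.0162) or without shUGDH-2 replicate 3 (−0.58, adjusted p = 0.0431). The difference between the hairpins was 0.48 (SE 0.20, adjusted p = 0.128), so the size of the EGF change was not shown to differ between them. The authors' deposited table gives −0.76 (SE 0.19) for shUGDH-1. The sources used here do not say how that value was estimated, so it may not be the same measure.

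TGFA, a close relative of EGF in receptor binding, was lower by about the same amount with both hairpins. It stood at 162, 163 and 163 CPM in controls, at 142, 149 and 153 CPM with shUGDH-1, and at 149, 150 and 147 CPM with shUGDH-2. No knockdown library reached the control range. The log2 fold changes were −0.14 (SE 0.03, adjusted p = 0.00121) and −0.13 (SE 0.03, adjusted p = 0.00492), and both calls held in each alternative. The interval of the difference between the hairpins was −0.05 to 0.08 (95%, log2).

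HBEGF, the heparin-binding ligand and the most abundant of the 10, moved little. Controls held 287, 292 and 291 CPM, shUGDH-1 libraries 280, 287 and 283 CPM, and shUGDH-2 libraries 305, 308 and 298 CPM. Every shUGDH-2 library was above every other library. Against controls neither hairpin passed the test (log2 −0.03 with shUGDH-1, adjusted p = 0.409, and 0.07 with shUGDH-2, adjusted p = 0.057). Without shUGDH-2 replicate 3 the second did (0.08, adjusted p = 0.0417). The difference between the hairpins, 0.10 (SE 0.03, adjusted p = 0.0038), held in each alternative.

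NRG1 (neuregulin 1), the ligand of ERBB3, differed between the hairpins. Controls held 30.0, 29.2 and 30.5 CPM, shUGDH-1 libraries 31.3, 35.4 and 36.5 CPM, and shUGDH-2 libraries 23.9, 29.8 and 26.0 CPM. The shUGDH-1 libraries were all above the controls, and 1 of the 3 shUGDH-2 libraries lay within the control range. The difference between the hairpins was −0.36 (SE 0.07, adjusted p = 0.000184) and held in each alternative. The rise with shUGDH-1 (log2 0.19, SE 0.07, adjusted p = 0.0406) was less secure: it missed the threshold in DESeq2 (0.150), without control replicate 1 (0.0582), 2 (0.1) or 3 (0.0614), and without shUGDH-1 replicate 2 (0.179) or 3 (0.174). The authors' deposited table has an adjusted p of 0.0817 for NRG1 with shUGDH-1. For shUGDH-2 the change was −0.17 on the log2 scale (adjusted p = 0.127), and −0.26 without shUGDH-2 replicate 2 (adjusted p = 0.0267).

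AREG (amphiregulin), the heparin-binding neighbour of EREG, was variable. Controls held 13.4, 10.7 and 9.97 CPM, shUGDH-1 libraries 7.93, 8.13 and 12.1 CPM, and shUGDH-2 libraries 10.7, 10.7 and 10.7 CPM. The 3 groups overlapped, with shUGDH-1 replicate 3 well above the other libraries of its group. The log2 fold changes were −0.33 (SE 0.13, adjusted p = 0.0592) and −0.10 (SE 0.12, adjusted p = 0.675), the latter 0.05 without control replicate 1. With shUGDH-1 it passed without control replicate 3 (−0.41, adjusted p = 0.0278), without shUGDH-1 replicate 3 (−0.51, adjusted p = 0.00415) and with no filter on low counts (−0.32, adjusted p = 0.044). Between the hairpins it passed without shUGDH-1 replicate 3 (0.41, adjusted p = 0.0413) but not with all libraries (0.23, adjusted p = 0.289). The authors' genome build, hg19, carries a near-identical copy named AREGB, so how reads were split between the copies is uncertain.

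BTC (betacellulin) was close to the limit of detection, with 98 counts over all libraries. Controls held 1.07, 0.850 and 1.19 CPM, shUGDH-1 libraries 1.08, 0.752 and 0.868 CPM, and shUGDH-2 libraries 0.758, 0.693 and 0.808 CPM. The 95% interval of its log2 fold change ran from −0.9 to 0.5 with shUGDH-1 and from −1.18 to 0.26 with shUGDH-2, so a change of ordinary size was not detectable at this depth.

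**Figure D3:**
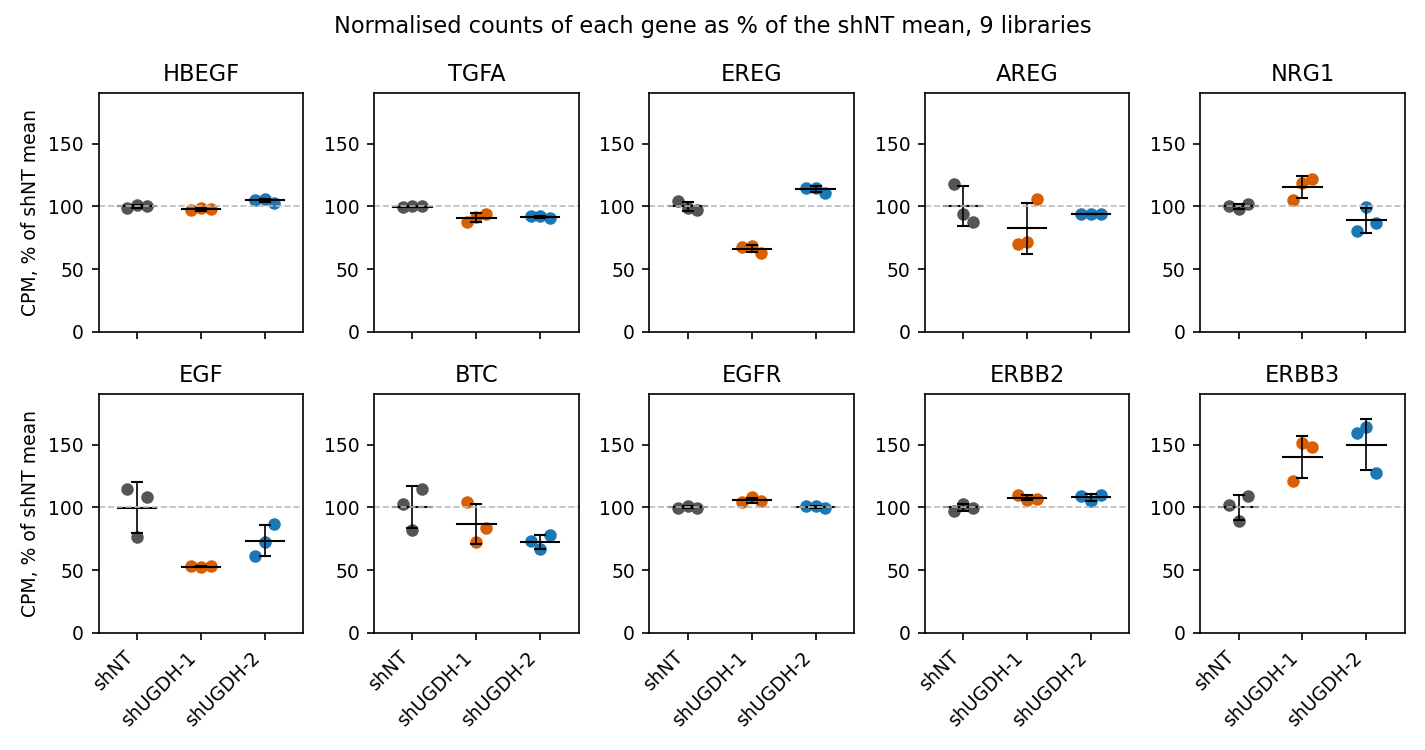
CPM of each of the 10 genes as a percentage of its mean in the 3 shNT libraries, 1 point per library, with the dashed line at 100%. EREG lies at 62.9% to 68.2% with shUGDH-1 and at 111% to 115% with shUGDH-2.

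Summed per kilobase of the longest transcript, the 7 ligands reached 199 ± 1.27 CPM per kilobase in controls, 184 ± 3.38 with shUGDH-1 and 204 ± 3.21 with shUGDH-2 (SD, n = 3). EREG made up 12.3% of that sum in controls, 8.88% with shUGDH-1 and 13.7% with shUGDH-2. HBEGF made up 60.9%, 64.7% and 62.4%. With the median transcript length the sums were 568, 513 and 569, with the shUGDH-1 sum again the lowest and an EREG share of 15.5%, 11.4% and 17.6%.

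Among the receptors, EGFR was called higher with shUGDH-1, ERBB3 with shUGDH-2 and ERBB2 with both. EGFR stood at 269, 274 and 270 CPM in controls, 282, 293 and 284 in shUGDH-1 libraries, and 274, 273 and 270 in shUGDH-2 libraries. The shUGDH-1 libraries were above the other 6, by 0.08 on the log2 scale against controls (SE 0.03, adjusted p = 0.0237). That call was lost in DESeq2 (adjusted p = 0.0817) and without control replicate 1 (0.058), control replicate 3 (0.0666) or shUGDH-1 replicate 2 (0.180). In the authors' deposited table the adjusted p of EGFR with shUGDH-1 is 0.0297. With shUGDH-2 the 95% interval was −0.04 to 0.06. Between the hairpins EGFR differed by −0.07 (adjusted p = 0.064), and by −0.07 without control replicate 1 (adjusted p = 0.0462).

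ERBB2, the partner receptor, was at 114, 121 and 117 CPM in controls, 129, 125 and 126 in shUGDH-1 libraries, and 128, 123 and 129 in shUGDH-2 libraries. Every knockdown library lay above every control. The log2 fold change was 0.11 (SE 0.04) with each hairpin, with an adjusted p of 0.0231 and 0.0279, and the difference between the hairpins had an interval of −0.07 to 0.07. With shUGDH-1 the call was lost in DESeq2 (0.0896), without control replicate 1 (0.113) or 3 (0.059) and without shUGDH-1 replicate 1 (0.123). With shUGDH-2 it was lost in DESeq2 (0.0988), without control replicate 1 (0.135) or 3 (0.0701) and without shUGDH-2 replicate 1 (0.0823) or 3 (0.121). The adjusted p of ERBB2 in the authors' deposited tables is 0.0418 with shUGDH-1 and 0.0561 with shUGDH-2.

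ERBB3, the NRG1 receptor, was scarce, with 353 counts in all. Controls held 2.54, 2.21 and 2.73 CPM, shUGDH-1 libraries 3.00, 3.76 and 3.69 CPM, and shUGDH-2 libraries 3.96, 4.08 and 3.15 CPM. Every knockdown library was above every control. Against controls, shUGDH-2 gave a log2 fold change of 0.58 (SE 0.20, adjusted p = 0.0409). For shUGDH-1 it came to 0.48 (SE 0.21, adjusted p = 0.0994). The difference of 0.11 had an interval of −0.27 to 0.48. The shUGDH-2 call was lost in DESeq2 (0.169), without control replicate 1 (0.0893), 2 (0.135) or 3 (0.0556), and without shUGDH-2 replicate 1 (0.121) or 2 (0.150). ERBB3 with shUGDH-2 has an adjusted p of 0.095 in the authors' deposited table.

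Of the other 5 family genes, NRG2 had a measurable level. NRG3 had no count in any library, which allows up to 0.0274 CPM over all 9 (3 counts of 109309381, counting error only). EPGN had 3 counts in all, ERBB4, the remaining receptor, 2, and NRG4 15, and none of these was tested. NRG2 had 513 counts in all and a mean of 4.72, 4.50 and 4.90 CPM in the 3 groups. It was not called in any comparison (adjusted p = 0.716 to 0.900).

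Genes that act on the ligands and receptors were followed in lists of pathway genes, which were written with earlier results of these data known. Of 15 genes of ligand processing and release, 4 were higher and none lower with shUGDH-1 (ADAM15, RHBDF2, CD9 and FURIN), and 3 higher and 1 lower with shUGDH-2 (ADAM15, CD9 and FURIN, and ADAM8). Over all tested genes, 20.8% were called with shUGDH-1 and 14.9% with shUGDH-2. The median log2 fold change of the list was 0.03 and 0.05. CD9, a membrane protein that binds the HBEGF precursor, rose by 0.19 (adjusted p = 0.00233) and 0.24 (adjusted p = 0.000139). FURIN, a proprotein convertase, rose by 0.12 with each. ADAM15, a metalloprotease, rose by 0.16 and 0.09, the second lost in DESeq2 (adjusted p = 0.0996) and without control replicate 3 (0.288), shUGDH-2 replicate 1 (0.107) or shUGDH-2 replicate 3 (0.064). RHBDF2 (iRhom2), which carries ADAM17 to the surface, rose by 0.22 with shUGDH-1 and had 0.11 with shUGDH-2 (adjusted p = 0.143).

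Of 31 adaptors and signal transducers, 2 were higher (EPS8 and PDPK1) and 3 lower (SHC1, PTPN11 and ARAF) with shUGDH-1, and 2 were higher (MAPK3 and STAT3) and none lower with shUGDH-2. All tested genes were called at 20.8% and 14.9%. The list's median was −0.01 and 0.02. ARAF, a RAF kinase, fell by 0.19 on the log2 scale with shUGDH-1 (adjusted p = 4.36e-05). With shUGDH-2 it had −0.10 (adjusted p = 0.0577), and passed without control replicate 1 (−0.11, adjusted p = 0.0421) or shUGDH-2 replicate 3 (−0.12, adjusted p = 0.0325). The EPS8 call, 0.16 with shUGDH-1 (adjusted p = 0.0188), was lost in DESeq2 (0.0944) and without control replicate 3 (0.144) or shUGDH-1 replicate 1 (0.0727) or 2 (0.157). With shUGDH-2 EPS8 passed without shUGDH-2 replicate 2 (adjusted p = 0.0413). The MAPK3 (ERK1) call, 0.18 with shUGDH-2 (adjusted p = 0.0303), was lost in DESeq2 (0.127) and without control replicate 1 (0.206) or 3 (0.0597), shUGDH-2 replicate 1 (0.199) or 3 (0.126). Without control replicate 3 or without shUGDH-2 replicate 1 the shUGDH-2 count was 1.

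Of 22 tested genes of receptor feedback, trafficking and turnover, 4 were higher (LRIG1, RNF41, EPN1 and MVP) and 1 lower (SH3KBP1) with shUGDH-1. With shUGDH-2, 2 were higher (LRIG1 and EPN1) and 1 lower (SH3KBP1). All tested genes were called at 20.8% and 14.9%. The shUGDH-1 count was 3 in all, not 5, without control replicate 2 or without any 1 of the shUGDH-1 libraries. The median was 0.03 and 0.00. LRIG1, which restrains ERBB receptors, had log2 fold changes of 0.13 (adjusted p = 0.0349) and 0.18 (adjusted p = 0.00269). The first was lost in DESeq2 (0.123), without control replicate 1 (0.0533) or 2 (0.212) and without shUGDH-1 replicate 1 (0.0531), 2 (0.166) or 3 (0.0538). SH3KBP1 (CIN85), an endocytic adaptor of CBL, fell by 0.12 with shUGDH-1 and by 0.09 with shUGDH-2, the second lost without control replicate 2 (adjusted p = 0.0787) or shUGDH-2 replicate 1 (0.0691). The RNF41 call, 0.18 with shUGDH-1 (adjusted p = 0.0224), was lost in DESeq2 (0.101) and without control replicate 2 (0.0517) or 3 (0.159) or shUGDH-1 replicate 1 (0.211). EPN1, an endocytic adaptor, rose by 0.09 and 0.12, the first lost without shUGDH-1 replicate 3 (adjusted p = 0.143).

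The output of ERK signalling was read from its feedback inhibitors and its responsive genes. Of 12 feedback inhibitors, 2 were higher and none lower with shUGDH-1 (DUSP4 and DUSP6). With shUGDH-2, 1 was higher (DUSP4) and 4 were lower (SPRY2, SPRED1, DUSP5 and DUSP6), where 8.04% of all tested genes were higher and 6.81% lower. The median was 0.03 and −0.12. Of 18 ERK-responsive genes, 6 were higher (FOS, FOSB, EGR1, IER2, PHLDA1 and EPHA2) and 2 lower (ETV1 and MYC) with shUGDH-1, and 4 were higher (EGR1, IER3, ETV4 and MYC) and 3 lower (FOS, JUNB and PLAUR) with shUGDH-2. With shUGDH-1, 10.5% of all tested genes were higher and 10.3% lower. Between the hairpins, 3 were higher (IER3, ETV1 and MYC) and 7 lower (FOS, FOSB, JUNB, EGR1, IER2, PHLDA1 and EPHA2), against 5.36% and 5.51% of all tested genes. Without shUGDH-2 replicate 3 the shUGDH-2 count was 4, and without shUGDH-2 replicate 2 the feedback inhibitor count was 3.

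Several of these calls were near the threshold. SPRED1, a RAS pathway inhibitor, had −0.18 with shUGDH-2 (adjusted p = 0.0339), and its call was lost in DESeq2 (0.149) and without control replicate 1 (0.318) or shUGDH-2 replicate 2 (0.0925) or 3 (0.206). SPRY2, of the Sprouty inhibitors, had −0.16 (adjusted p = 0.0149), and its call was lost in DESeq2 (0.0731) and without control replicate 2 (0.0627) or 3 (0.0659) or shUGDH-2 replicate 1 (0.108). PHLDA1 had 0.06 with shUGDH-1 (adjusted p = 0.0297), lost in DESeq2 (0.0832), without control replicate 1 (0.0656) or 3 (0.0811) and without shUGDH-1 replicate 1 (0.0522), 2 (0.13) or 3 (0.0656). Between the hairpins PHLDA1 had −0.06 (adjusted p = 0.047), and this was lost in 11 of 14 alternatives, with adjusted p up to 0.186. Those 11 were DESeq2, median-of-ratios scaling, no filter on low counts, the replicate block, and leaving out control replicate 3 or any 1 of the 6 knockdown libraries. ETV1, an ETS factor, had −0.20 with shUGDH-1 (adjusted p = 0.00494), lost without control replicate 2 (0.0533) or shUGDH-1 replicate 2 (0.0577). Between the hairpins ETV1 had 0.20 (adjusted p = 0.0109), lost in DESeq2 (0.0654) and without shUGDH-1 replicate 2 (0.105) or shUGDH-2 replicate 3 (0.0508).

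FOS, an immediate early transcription factor, moved in opposite directions, as EREG did, but with the signs exchanged. It held 74.6, 81.3 and 72.6 CPM in controls, 89.4, 97.3 and 94.7 CPM with shUGDH-1, and 64.0, 61.0 and 63.8 CPM with shUGDH-2. The 3 groups did not overlap. The log2 fold changes were 0.30 (adjusted p = 4.73e-07) and −0.28 (adjusted p = 1.77e-05), and the difference was −0.58 (adjusted p = 2.73e-15). EGR1, another immediate early factor, rose with both, by 0.36 and 0.26, and FOSB by 0.32 with shUGDH-1 with 0.02 for shUGDH-2.

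DUSP6, the ERK phosphatase, also differed in sign. It held 171, 166 and 165 CPM in controls, 180, 186 and 183 CPM with shUGDH-1, and 151, 147 and 161 CPM with shUGDH-2, with no overlap between groups. The log2 fold changes were 0.13 (adjusted p = 0.00247) and −0.13 (adjusted p = 0.00335), and the difference was −0.26 (adjusted p = 1.13e-08). The fall with shUGDH-2 missed the threshold without shUGDH-2 replicate 2 (−0.11, adjusted p = 0.0506). DUSP4, a related phosphatase, rose with both, by 0.10 and 0.20. No protein or phosphorylation was measured.

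**Figure D4:**
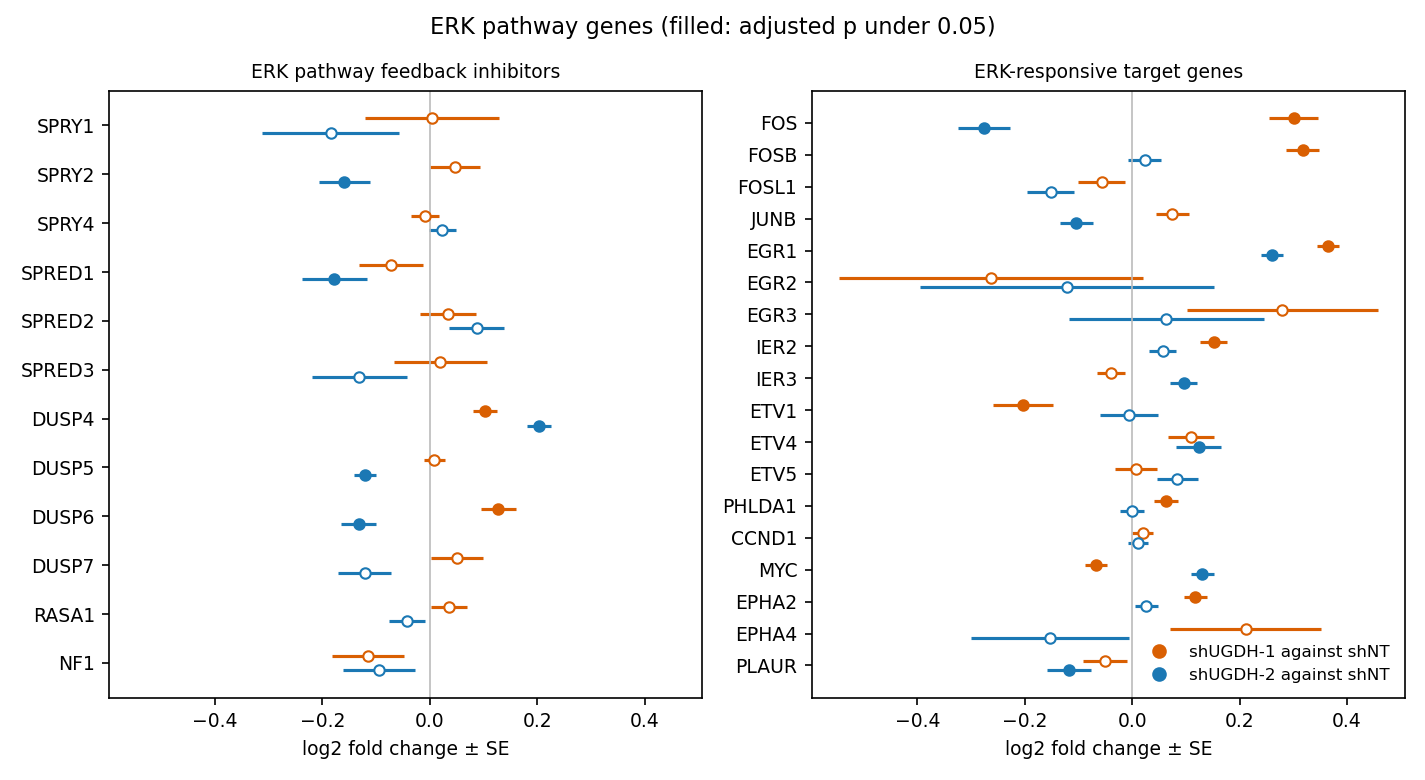
log2 fold change (± SE) of the genes of the 2 ERK lists with shUGDH-1 and shUGDH-2 against shNT, with filled points where the adjusted p is under 0.05. FOS lies at 0.30 and −0.28 and DUSP6 at 0.13 and −0.13, while EGR1 lies at 0.36 and 0.26.

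The genes whose levels followed each ligand or receptor most closely over the 9 libraries were found by the root mean square difference of centred log2 CPM over 12152 genes. For EGF these were SLC7A11 (0.160), LOC100505812 (0.177), CAPN11 (0.180) and FAM225B (0.187). SLC7A11, the cystine transporter, fell by 0.77 with shUGDH-1 and by 0.40 with shUGDH-2 on the log2 scale. For EGFR these included PHLDA1 (0.011), PODXL (0.015) and CAP1 (0.016). For EREG, added after its values were seen, these were IGFBPL1 (0.097), HLA-DPA1 (0.114), FNIP2 (0.120) and HLA-DRA (0.121). HLA-DRA, a class II antigen presentation gene, had log2 fold changes of −0.66 with shUGDH-1 and 0.32 with shUGDH-2. A close match is a likeness in these 9 libraries and says nothing of shared control.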

How the data were processed

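RNA from 9 MDA-MB-231 libraries (3 groups of 3) was sequenced as paired-end mRNA-seq. The submitters' processing notes name STAR, DESeq, DESeq2 and the hg19 build, with no versions and no roles. The values used are the raw gene counts the authors deposited. The authors' deposited tables for each hairpin, of size-factor signal, log2 fold changes and p-values, were used only for values named as theirs. Of the entries, 28 bear a date in place of a symbol (0.232% of counts) and stayed in the fit without a name. Counts were fitted in edgeR 4.0.16 (R 4.3.3) with TMM scaling, filterByExpr (minimum count 10) and the robust quasi-likelihood test over all 9 libraries, with Benjamini-Hochberg adjustment over 12546 genes. A standard error is the absolute log2 fold change over the square root of F. DESeq2 1.42.0 was an alternative, as were other scaling, no filter, the 2 groups compared alone, a replicate block and leaving out each library. Lengths came from GENCODE 29 and sequences from RefSeq GRCh38.p14; no coordinate was joined to hg19. The code was tested on simulated counts. All members, UGDH, the other family genes and up to 4 genes per pathway list were named by rule, calls in both comparisons first and then by size. Other genes named beside a count of calls were chosen after their values were seen, as were the EREG likeness, its neighbours and the letter searches. The members and lists were chosen with earlier results of these data known. Some genes that the rule names are not reported here. The labels give no batch, and whether strand was used in counting is not given in the sources used here. Equal replicate numbers in 2 groups did not pair the libraries.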

Additional observations from a re-analysis of the deposited data

Results flagged for a closer look

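The effects of the 2 hairpins differed from each other, by a direct test of shUGDH-2 against shUGDH-1 in edgeR's quasi-likelihood test, for 3 of the 10 genes. In that test 10.9% of all tested genes were called, and the 10 were chosen with these contrasts known. The difference was 0.77 on the log2 scale for EREG, 0.10 for HBEGF and −0.36 for NRG1. For EREG the 3 groups did not overlap and the sign against controls changed with the hairpin. UGDH itself did not pass the test between the hairpins (log2 −0.09, adjusted p = 0.740).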

How the results depend on the processing

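Of 417 values of the 10 genes over all alternatives, called or not, 383 kept their side of the threshold, 25 lost their call and 9 gained one. The alternatives include leaving out a library of the group not compared, which enters a comparison only through the shared fit. The 383 also include genes not called in either analysis, so it does not measure how well the calls held. The losses fell on EGFR (4 of 14 alternatives), NRG1 (6) and ERBB2 (4) with shUGDH-1, and on ERBB2 (5) and ERBB3 (6) with shUGDH-2. The sign changed in 6 values, all of AREG with shUGDH-2, TGFA between the hairpins or ERBB2 between the hairpins, and 0 of these were called in either analysis. DESeq2 called 1632, 1005 and 793 genes with shUGDH-1, with shUGDH-2 and between the hairpins, against 2605, 1864 and 1363 in edgeR. Both were fitted to the same 12546 genes. Of the 10 genes DESeq2 called 3 with shUGDH-1 and 2 with shUGDH-2, where the authors' deposited tables have 5 and 2 under 0.05. The share of all genes under 0.05 in those tables was not counted, so nothing is read from the 5 and 2. With shUGDH-2 DESeq2 called 2 genes of ligand processing, 0 adaptors, 3 ERK feedback inhibitors and 4 ERK-responsive genes, beside its 1005 genes in all. With shUGDH-1 it called 3 genes of receptor feedback and trafficking, beside 1632 in all. The cause of the differences from edgeR was not tested. Leaving out each library in turn gave 3 to 6 of the 10 genes with shUGDH-1 and 2 to 5 with shUGDH-2. Over all tested genes it gave 1983 to 2606 with shUGDH-1 and 1256 to 1842 with shUGDH-2. The same gave 1 to 3 adaptors, 3 to 5 feedback inhibitors and 4 to 8 ERK-responsive genes with shUGDH-2, and 3 to 5 genes of receptor feedback with shUGDH-1. Equal replicate numbers did not deviate together (correlations −0.041 to 0.069), and with a replicate block 6, 4 and 3 of the 10 genes were called in the 3 comparisons and 2582, 1857 and 1326 genes in all. BTC has no adjusted p in DESeq2. Depth limits BTC, ERBB3 and EGF, the scarcest of the 10.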

Other observations

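EREG, AREG and BTC lie in a row on chromosome 4 after EPGN, and 5 genes on each side, in RefSeq order, were read after the EREG values were seen. Of the 7 that could be tested, 4 were lower with shUGDH-1, where 10.3% of all tested genes were lower: on the log2 scale CXCL3 fell by 0.34, RCHY1 by 0.35, THAP6 by 0.50 and MTHFD2L by 0.56 (adjusted p = 0.00779, and 0.0569 in DESeq2). CXCL3 also fell by 0.31 with shUGDH-2. CXCL2, a chemokine, had −0.05 with shUGDH-1 (adjusted p = 0.286) and rose by 0.20 with shUGDH-2, with a difference between the hairpins of 0.25 (adjusted p = 7.2e-09). THAP6 had −0.03 with shUGDH-2 (adjusted p = 0.880) and a difference of 0.46 between the hairpins (adjusted p = 0.00293, and 0.0542 without shUGDH-2 replicate 2). C4orf26 had −0.32 (adjusted p = 0.236) and 0.53 (adjusted p = 0.0179), with a difference of 0.84 (adjusted p = 0.000218). Its rise with shUGDH-2 missed the threshold in DESeq2 (adjusted p = 0.109) and without control replicate 2 (0.0852) or 3 (0.0649) or shUGDH-2 replicate 2 (0.05) or 3 (0.0561). RCHY1 missed the threshold without shUGDH-1 replicate 2 (adjusted p = 0.0709). PPBP, CXCL5 and PARM1 had too few counts to be tested, and CDKL2 was not called.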
